A study of Homo sapiens with 36 samples.

Results

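LDB1 knockdown in K562 cells was measured in 3 of the 36 libraries of a series on transcription networks of the LMO2 complex in acute myeloid leukemia. The 3 libraries were chosen by their labels: 1 carried a control shRNA, 1 carried LDB1 shRNA 1 and 1 carried LDB1 shRNA 2. An shRNA is a short hairpin RNA that a cell cuts into a small RNA directed against a matching messenger RNA. K562 is an established human leukemia line with erythroid features. The 3 libraries share the parent line and were made from poly(A) RNA. Their labels name no degron allele and no drug, and do not say outright that there was none. How the hairpins were delivered, for how long and with which sequences was not stated in the labels. The sample titles call the knockdown libraries replicates 1 and 2 of an LDB1 shRNA and the group labels number the shRNAs 1 and 2, so that only the group labels make them different hairpins. Each group is 1 library, both comparisons share the same control library, and no test between groups was possible. Sizes are therefore given for each knockdown library next to the other.

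A pair of other sets of the series, which share no library with the knockdown, served as separate measurements. In the first, 24 K562 libraries covered parental cells, an LMO2 control line and 2 LMO2 degron lines, labelled LMO2 degron rep 1 and rep 2, each with 2 biological replicates per day. Day 0 libraries had no dTAGv1, and those of days 1 and 4 had the agent at a dose that the labels give as 750 uM. A degron is a protein tag through which the agent directs the tagged protein to destruction. The unit of that dose is the labels' own and could not be checked. In the second, 9 libraries came from HEL cells, another established erythroleukemia line, electroporated with a non-targeting siRNA pool, TAL1 siPool 1 or TAL1 siPool 2, with 3 biological replicates each. Nothing in the labels says whether any of these replicates were separate cultures, and p-values in these sets measure the spread between the libraries as labelled.

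LDB1 is a nuclear adaptor protein that binds the LIM domains of LMO2 and pairs with other LDB1 molecules. Through LMO2 it joins the DNA-binding proteins TAL1, its E-protein partner and GATA1, which together recognise an E-box lying a short distance from a GATA site. In red cell precursors this complex occupies regulatory regions of globin, heme and membrane genes, and LDB1 pairing is known to bring distant enhancers close to promoters.

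The knockdown table held TPM values (read counts scaled by transcript length and library total) for 13707 genes, with sums between 972556 and 976400 in the 3 libraries. The rule by which genes were kept in it was not stated, so a gene said to be not listed has no value and is not taken as 0. TPM keeps no read depth, so the counting error behind a value is unknown. Comparisons used the log2 ratio of TPM + 1, which understates changes of low genes, over the 12445 genes that reached 5 TPM in at least 1 library. A gene is said to have risen or fallen only where both knockdown libraries were at least 2-fold away from the control in the same direction. The median log2 ratio of all counted genes was 0.18 with shRNA 1 and 0.13 with shRNA 2.

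LDB1 itself fell in both libraries, and so did LMO2, its direct partner. LDB1 stood at 468 TPM in the control library, 62.4 TPM with shRNA 1 and 69.6 TPM with shRNA 2, which is 7.39-fold and 6.64-fold lower. LMO2 stood at 131 TPM in the control, 44.2 TPM with shRNA 1 and 46.2 TPM with shRNA 2, log2 ratios of -1.55 and -1.48. The bridging protein of the complex was thus lower at the RNA level in both libraries. TAL1, the basic helix-loop-helix member, was at 102, 105 and 103 TPM, and its log2 ratios were 0.03 and 0.01. GATA1, the zinc finger member, was at 681, 473 and 499.9 TPM, with log2 ratios of -0.52 and -0.45. The RNA of these DNA-binding members lay within 2-fold of the control.

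Of the 26 counted members of the list of LDB1 partners and complex targets, 3 rose and 4 fell, where 8.94% of all counted genes rose and 2.21% fell. After TMM rescaling 2 of the 26 rose and 5 fell. The median log2 ratios of the list were -0.14 and 0.04, or -0.32 and -0.10 after TMM rescaling. Without rescaling, the members that fell were LMO2, KLF1, GFI1B and LDB1, the last being the gene that the shRNAs target. KLF1, an erythroid zinc finger activator, was at 531 TPM in the control, 111 TPM with shRNA 1 and 165 TPM with shRNA 2. GFI1B, a repressor that recruits the histone demethylase KDM1A, was at 54.8, 14.3 and 19.6 TPM. Both were lower with shRNA 1 than with shRNA 2. The members that rose were SSBP2, IRF2BP2 and CBFB. SSBP2, a single-stranded DNA-binding protein that protects LDB1 from degradation, went from 3.80 TPM to 16.5 and 13.7 TPM. IRF2BP2, a corepressor that binds ETO2, went from 65 TPM to 156 and 214 TPM, and CBFB, the partner of RUNX1, from 36.3 TPM to 84.5 and 79.0 TPM. ETO2 itself, listed as CBFA2T3, was at 93.5, 41.1 and 49.1 TPM and crossed 2-fold only with shRNA 1.

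Across all counted genes the response went mostly upwards. A total of 1113 genes rose (8.94% of those counted) and 275 fell (2.21%), so that 80.2% of the changed genes were higher. The counts of list members given below as risen or fallen are to be read beside these shares of 8.94% and 2.21%. For counts of members that merely lay above or below the control in both libraries, no share over all counted genes was computed. The shared control favours 2 ratios on the same side, so those counts describe the lists only and have no background. Against the control alone, shRNA 1 had 1624 genes at least 2-fold higher (13%) and 493 at least 2-fold lower (3.96%), and shRNA 2 had 1244 (10%) and 393 (3.16%). No gene was past 2-fold upwards with one shRNA and downwards with the other, a count that the shared control favours. Of the 1113 genes that rose, 876 were higher with shRNA 1 than with shRNA 2, and of the 275 that fell 204 were lower with shRNA 1. The 2 knockdown libraries differed from each other by at least 2-fold for 87 genes higher with shRNA 2 (0.699%) and 86 genes lower (0.691%).

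The upward share of the calls depended on how the libraries were scaled. It was 67.6% after each ratio was centred on its median and 68.5% after TMM rescaling, which gave 893 higher and 411 lower genes. TMM rescaling moved the ratios down by 0.19 with shRNA 1 and 0.14 with shRNA 2 on the log2 scale. For a sense of scale, biological replicates of 1 line and day in the degron set had 1.04% to 10.4% of genes at least 2-fold apart in 12 pairs, with a median of 1.73%, on an FPKM table made separately.

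The control library is the denominator of both ratios, so the call itself favours low control levels among genes that rose and high ones among genes that fell. The control levels of the genes that rose were low. The median control level of the genes that rose was 4.93 TPM, against 22.4 TPM for all counted genes and 26.4 TPM for the genes that fell. Of the 1113, 563 were under 5 TPM in the control and were counted only through a knockdown library, 171 were under 1 TPM there, and 14 were listed at 0. Of the 275 that fell, 91 reached 5 TPM only in the control. At least 4-fold in both libraries, 243 genes were higher and 25 lower, and at least 8-fold 42 were higher and 2 lower. Just inside the threshold, within 0.1 on the log2 scale, lay 161 higher and 57 lower genes, and just outside it lay 238 and 97.

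**Figure D1:**
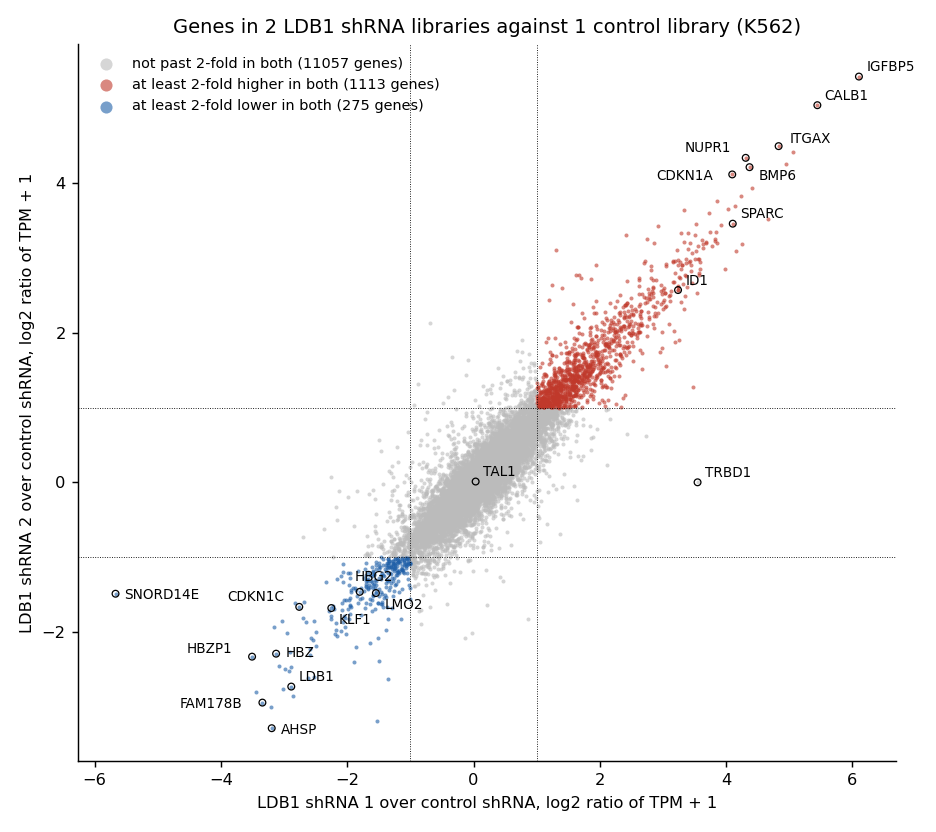
Each point is a gene counted in the 3 K562 libraries, with the log2 ratio of TPM + 1 of LDB1 shRNA 1 over the control on the horizontal axis and of LDB1 shRNA 2 over the same control on the vertical axis, and dotted lines at 2-fold. The 1113 genes past 2-fold upwards in both are red and the 275 past 2-fold downwards are blue, with IGFBP5 at the upper end and AHSP and LDB1 at the lower end.

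Among genes that reached 10 TPM, and ranked by the smaller of the 2 ratios, the highest rise was that of IGFBP5, a secreted protein that binds insulin-like growth factors. IGFBP5 was at 0.179 TPM in the control, 80 TPM with shRNA 1 and 49.7 TPM with shRNA 2, 68.7-fold and 43.0-fold higher on the TPM + 1 scale. CALB1, a calcium-binding protein best known from neurons and kidney, was at 2.24, 140 and 106 TPM. ITGAX, the integrin chain CD11c of myeloid and dendritic cells, was at 0.537, 42.7 and 33.7 TPM. These 3 genes were low in the control and at middle levels in both knockdown libraries. PDE11A, a phosphodiesterase for cyclic nucleotides, went from 0.489 TPM to 48.4 and 30.9 TPM. ANKRD55, an ankyrin repeat protein, went from 0.856 TPM to 56.4 and 34.6 TPM. BMP6, a bone morphogenetic protein that signals iron levels to liver cells, went from 0.381 TPM to 27.5 and 24.6 TPM. In all 3, shRNA 1 gave the higher level.

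NUPR1, a small nuclear protein induced by stress, was at 2.87 TPM in the control, 75.8 TPM with shRNA 1 and 77.4 TPM with shRNA 2. CDKN1A, the cyclin-dependent kinase inhibitor p21, was at 7.16, 139 and 141 TPM, 17.1-fold and 17.3-fold higher. In NUPR1 and CDKN1A the knockdown libraries lay close together. The remaining genes among the 12 largest rises were VTN (0.337, 24.2 and 18.0 TPM), which encodes the adhesive plasma protein vitronectin, GBP2 (0.728, 24.1 and 22.5 TPM), an interferon-inducible GTPase, CPZ (2.27, 56.9 and 41.3 TPM), a carboxypeptidase, and AC243312.1 (1.40, 50.2 and 35.8 TPM). The last is a processed pseudogene, and its value may hold reads of its parent gene.

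Among genes that reached 10 TPM, and ranked by the smaller of the 2 ratios, the largest fall was that of AHSP, the chaperone that keeps free alpha globin soluble. AHSP was at 35.3 TPM in the control, 2.97 TPM with shRNA 1 and 2.72 TPM with shRNA 2, which is 9.16-fold and 9.77-fold lower. FAM178B went from 817 TPM to 79.6 and 105 TPM. RLN3, which encodes the peptide hormone relaxin-3, went from 46.4 TPM to 3.34 and 5.79 TPM. All 3 were far lower in both knockdown libraries than in the control. MZT1, a small protein of the gamma-tubulin ring complex, went from 93.6 TPM to 11.4 and 15.4 TPM, and ESPN, the actin-bundling protein espin, from 77.2 TPM to 8.27 and 13.3 TPM. LDB1 and EPB42, described with the membrane genes, also belong to the 12 largest falls. The other 5 were MIR202HG, AL031848.1 and AC022098.2, which are annotated antisense to other genes, and the pseudogenes EIF5AP2 and HBZP1. Strand use in the counting is unknown, and reads of these 5 may belong to the overlapping or parent genes.

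Of 10 counted genes on the list of globins and AHSP, 6 fell and none rose, where 2.21% of all counted genes fell, and the median log2 ratios were -1.68 and -1.13 against 0.18 and 0.13 over all counted genes. HBZ, the embryonic alpha-like globin, was at 3781 TPM in the control, 432 TPM with shRNA 1 and 771 TPM with shRNA 2. HBG2, a fetal gamma globin, was at 2439, 699 and 883 TPM, and its near-identical copy HBG1 was at 982, 234 and 426 TPM. HBM and HBQ1, minor alpha-like globins, were at 12.8, 2.05 and 2.50 TPM and at 327, 142 and 156 TPM. HBE1, the embryonic beta-like globin, stood apart with 4846, 3639 and 5017 TPM, so that its knockdown levels lay on both sides of the control. HBA2 (468, 252 and 298 TPM) and HBA1 (176, 59.1 and 151 TPM) were lower without passing 2-fold in both, and HBD (42.8, 54.3 and 50.3 TPM) was slightly higher. How reads of HBG1 and HBG2, or of HBA1 and HBA2, were divided between the copies is not known. In RNA from whole cultures, fewer cells that make a transcript and less of it per cell cannot be told apart.

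Genes of heme synthesis and transport into mitochondria lay below the control in both libraries for 12 of 17 counted members, of which 2 fell and 1 rose, with medians of -0.75 and -0.47. Of those that fell, ABCB10, an inner mitochondrial membrane transporter needed for heme synthesis, was at 95, 23.4 and 31.1 TPM. ALAS1, the housekeeping form of the first enzyme, was the member that rose, with 39.3, 81.9 and 80.1 TPM, a rise that did not hold after TMM rescaling. ALAS2, the erythroid form of that enzyme, was at 604, 415 and 613 TPM and differed in direction between the shRNAs. FECH, which inserts the iron, was at 131, 56.7 and 70.8 TPM and passed 2-fold only with shRNA 1. Of 14 counted genes of iron handling 1 fell, TFR2, a sensor of transferrin iron, with 222, 67.3 and 93.4 TPM.

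Among 28 counted genes of the red cell membrane and surface, 5 fell and 1 rose, and 18 lay below the control in both libraries. EPB42, the membrane skeleton protein 4.2, was at 20.9 TPM in the control, 1.96 TPM with shRNA 1 and 2.98 TPM with shRNA 2. SPTB, erythroid beta spectrin, was at 35.3, 6.71 and 10.5 TPM. XK, the carrier of the Kx antigen, was at 43.0, 13 and 16.0 TPM. STOM, the membrane protein stomatin, was the member that rose, with 29, 76.7 and 70.0 TPM. After TMM rescaling 8 of the 28 fell and 1 rose. Of 17 counted erythroid transcription factors 3 fell and none rose. These were KLF1, GFI1B and MYB, a factor of proliferating progenitors, which went from 113 TPM to 22.9 and 32.0 TPM.

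**Figure D2:**
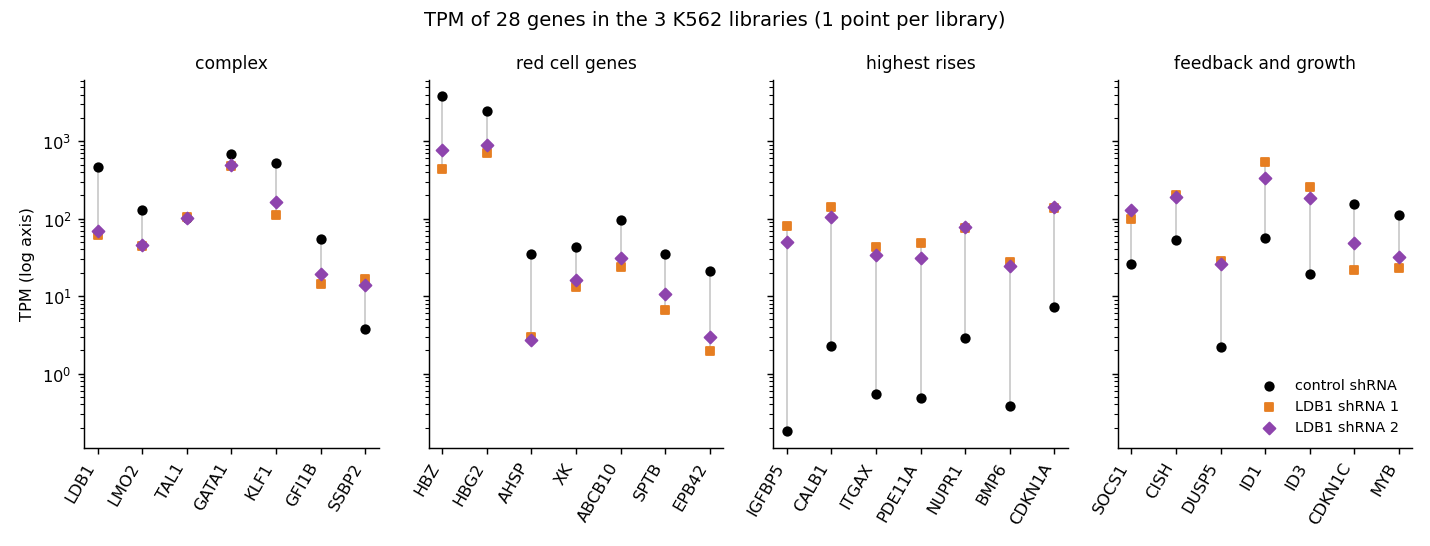
Each point is the TPM of a gene in 1 library, on a log axis, for 28 genes in the control shRNA library (black circles), the LDB1 shRNA 1 library (orange squares) and the LDB1 shRNA 2 library (purple diamonds). The knockdown points lie together and away from the control for LDB1, AHSP, IGFBP5 and CDKN1A, while the 3 points of TAL1 lie at 102 to 105 TPM.

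In the promoters of several genes that fell, the letters CTG, which an E-box can hold, stood 8 or 9 bases from a GATAA. The letters CTG, 8 or 9 bases and then GATAA were searched on both strands of the 250 bases before each RefSeq start in GRCh38.p14. Genes with several starts contributed each of them. Promoters were at hand for only 123 of the 275 genes that fell, 672 of the 1113 that rose and 8215 of the 12445 counted. The other genes, AHSP, HBZ and LMO2 among them, were not searched. This arrangement was found in 8 of 199 promoters of genes that fell (4.02%), in 12 of 1033 promoters of genes that rose (1.16%), in 82 of 11650 promoters of all counted genes (0.704%) and in 368 of the 35116 promoters in the table (1.05%). GATAA and the full E-box were less selective. GATAA alone was found in 18.1%, 13.6%, 12.7% and 20.4% of the same 4 sets, and the E-box CANNTG, which can hold the CTG, in 55.8%, 55.1%, 53.3% and 61.8%. The letters CACCC, which KLF1 can bind, were found in 60.3%, 64.6%, 58.9% and 54.7%. The 8 genes that fell and had the arrangement were KLF1, GFI1B, HEMGN, PKLR, EPB42, RLN3, C17orf99 and SLC10A4. The CTG need not lie in an E-box, and the windows of EPB42 and RLN3 held no CANNTG. Among the promoters printed below, the marked CTG was part of a CANNTG only in HEMGN. Among the 12 that rose was ANKRD55, so that the arrangement was not limited to genes that fell. A match is a description of the letters in this window and no sign that the complex sits there.

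Below are the promoters of 5 genes that fell and of ANKRD55, which rose, shown because they hold the arrangement, and all but ANKRD55 belong to genes of erythroid cells described here. Each is read 5′ to 3′ along the strand of its gene and ends at the base before the start of transcription. Capitals mark the fixed letters of the match. In KLF1 the match lies on the opposite strand and reads as TTATC, 8 bases and CAG. KLF1 lies at chr19:12887202-12887451 on the minus strand, GFI1B at chr9:132978444-132978693 on the plus strand, HEMGN at chr9:97938173-97938422 on the minus strand, PKLR at chr1:155301439-155301688 on the minus strand, EPB42 at chr15:43221019-43221268 on the minus strand and ANKRD55 at chr5:56233331-56233580 on the minus strand.
KLF1: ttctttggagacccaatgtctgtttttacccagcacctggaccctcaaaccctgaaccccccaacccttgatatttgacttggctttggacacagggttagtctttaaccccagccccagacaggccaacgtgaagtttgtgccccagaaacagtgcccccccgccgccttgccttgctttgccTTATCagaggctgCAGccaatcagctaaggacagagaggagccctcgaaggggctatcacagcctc
GFI1B: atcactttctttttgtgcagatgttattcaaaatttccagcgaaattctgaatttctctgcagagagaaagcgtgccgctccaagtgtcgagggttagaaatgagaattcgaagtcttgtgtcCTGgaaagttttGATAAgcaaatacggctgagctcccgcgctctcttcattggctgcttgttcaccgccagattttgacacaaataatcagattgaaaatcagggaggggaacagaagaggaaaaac
HEMGN: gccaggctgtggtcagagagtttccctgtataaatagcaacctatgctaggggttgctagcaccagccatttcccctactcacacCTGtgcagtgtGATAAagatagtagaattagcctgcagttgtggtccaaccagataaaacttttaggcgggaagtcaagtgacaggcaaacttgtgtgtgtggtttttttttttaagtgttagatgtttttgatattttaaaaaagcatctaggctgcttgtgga
PKLR: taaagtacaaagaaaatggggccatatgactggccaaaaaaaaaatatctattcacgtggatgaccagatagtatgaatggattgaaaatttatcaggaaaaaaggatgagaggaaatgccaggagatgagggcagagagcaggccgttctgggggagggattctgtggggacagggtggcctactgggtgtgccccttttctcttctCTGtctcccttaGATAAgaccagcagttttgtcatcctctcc
EPB42: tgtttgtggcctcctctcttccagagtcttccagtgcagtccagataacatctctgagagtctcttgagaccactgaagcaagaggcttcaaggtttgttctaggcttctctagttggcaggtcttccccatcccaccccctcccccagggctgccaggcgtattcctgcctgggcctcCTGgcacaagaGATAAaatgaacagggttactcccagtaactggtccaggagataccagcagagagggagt
ANKRD55: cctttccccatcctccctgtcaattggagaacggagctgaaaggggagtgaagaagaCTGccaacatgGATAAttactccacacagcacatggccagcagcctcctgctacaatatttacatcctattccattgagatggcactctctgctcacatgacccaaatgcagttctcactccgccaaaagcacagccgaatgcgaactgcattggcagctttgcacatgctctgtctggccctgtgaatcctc
The marked GATAA, or TTATC in KLF1, begins 66 bases before the start in KLF1, 115 in GFI1B, 154 in HEMGN, 30 in PKLR, 60 in EPB42 and 182 in ANKRD55. HEMGN, a nuclear protein of erythroid precursors, was at 349, 53.1 and 98.6 TPM. PKLR, the pyruvate kinase of red cells and liver, was at 277, 55.7 and 83.5 TPM, while PKM, the pyruvate kinase of most other cells, was at 155, 432 and 517 TPM. HEMGN is named for its promoter, after its values were seen.

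Cyclin-dependent kinase inhibitors moved in both directions. Of 14 counted kinase inhibitors and G1 cyclins, 3 rose and 2 fell, where 8.94% of all counted genes rose and 2.21% fell. After TMM rescaling 2 rose and 2 fell, and with a pseudocount of 5 the counts were 2 and 1. CDKN1A and CDKN2D, the inhibitor p19, rose, the latter from 18.9 TPM to 40.1 and 41.7 TPM, a rise that did not hold after TMM rescaling or with a pseudocount of 5, as did CCND1, cyclin D1, from 17.0 TPM to 53 and 44.8 TPM. CDKN1C, the inhibitor p57, went the other way, with 155 TPM in the control, 22 TPM with shRNA 1 and 48.1 TPM with shRNA 2. CDK6, the kinase that cyclin D1 activates, also fell, from 31.5 TPM to 13 and 15.0 TPM. None of 24 counted S phase genes and none of 23 counted G2 and M phase genes passed 2-fold in both libraries. MKI67, the proliferation marker Ki-67, was at 53.8, 67.0 and 75.3 TPM, CCNA2, cyclin A2, was at 248, 130 and 161 TPM, and RRM2, a ribonucleotide reductase subunit, was at 39.8, 75.8 and 83.3 TPM. The cell cycle genes thus lay on both sides of the control, although after TMM rescaling 18 of the 24 S phase genes and 13 of the 23 G2 and M phase genes lay below it in both libraries.

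The genes of ribosomes and of their making lay below the control by amounts under 2-fold. None of 27 counted ribosomal protein genes passed 2-fold in both libraries, and 27 of 27 lay below the control in both, with medians of -0.54 and -0.35. Of 24 counted MYC targets and ribosome biogenesis genes none passed and 20 lay below in both, with medians of -0.53 and -0.47. MYC itself was at 294, 119 and 179 TPM, log2 ratios of -1.30 and -0.71. NCL, the nucleolar protein nucleolin, was at 317, 186 and 173 TPM, and TFRC, the transferrin receptor, at 631, 310 and 345 TPM. TFRC passed 2-fold in both after TMM rescaling. Of 21 counted respiratory chain genes encoded in the nucleus none passed and 16 lay below in both, with medians of -0.32 and -0.27, while the 13 mitochondrially encoded genes had medians of -0.03 and -0.12.

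Of 20 counted immediate early and ERK feedback genes 10 rose and none fell, and the medians were 1.03 and 1.66. DUSP5, a nuclear phosphatase of ERK, was at 2.17 TPM in the control, 28.7 TPM with shRNA 1 and 26.3 TPM with shRNA 2. FOSL2, an AP-1 member, was at 1.58, 17.7 and 22.8 TPM, and SPRY4, an inhibitor of receptor tyrosine kinase signalling, was at 5.12, 37.0 and 27.7 TPM. PHLDA1 was at 1.30, 13.4 and 9.11 TPM. Each was several-fold higher in both libraries. Of 13 counted members of the JAK-STAT and feedback list 5 rose and 1 fell. The risers were the feedback inhibitors SOCS1 (25.8, 99.3 and 128 TPM), SOCS2 (36.1, 159.6 and 111 TPM), SOCS3 (17.6, 54.4 and 46.9 TPM) and CISH (53.1, 202 and 193 TPM), and the repressor BCL6 (46.4, 227 and 204 TPM). STAT5A, the factor that drives CISH in blood cells, fell from 185 TPM to 72.1 and 83.0 TPM.

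Of 14 counted TGF-beta and BMP genes 6 rose and none fell, with medians of 0.96 and 0.83. ID1 and ID3, inhibitors of E-proteins and targets of BMP signalling, stood at 55.4, 531 and 334 TPM and at 19.3, 258 and 187 TPM. TGFB1, the ligand TGF-beta 1, was at 212, 645 and 662 TPM, and TGFBR3, the coreceptor betaglycan, was at 7.98, 29.3 and 27.5 TPM. SMAD7, an inhibitor of the pathway, was at 6.44, 14.5 and 14 TPM, and BMP6 was described above. Of 11 counted genes of the IGF axis 3 rose and none fell. Besides IGFBP5 these were IGF1, the growth factor, with 0.702, 9.34 and 5.86 TPM, and IRS1, the receptor substrate, with 0.295, 5.15 and 3.03 TPM.

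Annexins, S100 proteins and related genes were higher in all 15 counted members in both libraries, of which 8 rose, with medians of 1.28 and 1.11. LGALS1, the lectin galectin-1, was at 485 TPM in the control, 1758 TPM with shRNA 1 and 2046 TPM with shRNA 2. VIM, the intermediate filament protein vimentin, was at 220, 933 and 749 TPM. S100A11 was at 127, 418 and 369 TPM and S100A13 at 27.8, 94.7 and 90.6 TPM. LGALS1, VIM and S100A11 were abundant in the control already, unlike most genes that rose. After TMM rescaling 6 of the 15 passed 2-fold.

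Of 16 counted p53 targets 3 rose, CDKN1A, PHLDA3 (0.138, 5.30 and 2.81 TPM) and the death receptor TNFRSF10B (33.1, 67.6 and 84.5 TPM). For comparison, 8.94% of all counted genes rose. After TMM rescaling TNFRSF10B no longer passed and 2 of the 16 did, and with a pseudocount of 5 neither it nor PHLDA3 passed and 1 of the 16 did. Of 16 counted regulators of apoptosis 5 rose and none fell. They included both survival and death genes: BCL2A1 (0.0883, 7.5 and 5.78 TPM) and MCL1 (132, 322 and 284 TPM) protect cells, while BMF (6.61, 35.7 and 39.8 TPM), PMAIP1 (40.4, 139.7 and 126 TPM) and CASP8 (5.15, 18.3 and 14.7 TPM) promote death. Of 23 counted autophagy and lysosome genes 6 rose, among them GABARAPL1, an LC3-like protein, with 18.8, 103 and 100.7 TPM, and CTSC, the protease cathepsin C, with 21.1, 110 and 70.2 TPM. After TMM rescaling 3 of the 23 passed. Of 18 counted HIF targets 4 rose, and CA9, a carbonic anhydrase induced in low oxygen, was at 1.38, 23.0 and 28.8 TPM. EGLN3, a HIF hydroxylase, was at 5.81, 46.5 and 44.1 TPM. TXNIP and ARRDC4, arrestins induced by glucose, were at 82.2, 858 and 561.8 TPM and at 3.60, 86.9 and 41.1 TPM, and both were listed with the antioxidant genes, of which SOD2 fell from 22.6 TPM to 6.84 and 7.23 TPM.

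In several metabolic, stress and immune lists the share that rose was near the 8.94% of all counted genes. Of 24 counted cholesterol synthesis genes 2 rose, among them STARD4, a sterol carrier, with 28.3, 70.4 and 79.0 TPM. Of 22 counted genes of the integrated stress and unfolded protein response 2 rose, NUPR1 and SESN2 (82.7, 206 and 188 TPM), and ATF3, a stress-induced factor, was at 14.5, 23.9 and 51.4 TPM. Of 14 counted interferon genes 1 rose, IFIT3 (3.64, 11 and 10.4 TPM). None of 8 counted MHC class I genes, 11 counted genes of the small RNA pathway and 10 counted histone genes passed 2-fold in both. AGO1, which loads small RNAs, was at 22.6, 43.6 and 38.4 TPM.

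Markers of other blood and tissue cells were examined because a culture may hold cells of another state or type. The defining erythroid markers of K562 were present in the control, with HBG2, GATA1 and SPTB at the levels given above. Of the 28 megakaryocyte and platelet markers 13 were counted, of which 5 rose (3 after TMM rescaling or with a pseudocount of 5) and 1 fell, and GP9, PF4 and PPBP were not listed. CLU, the chaperone clusterin of platelet granules, was at 1.73, 20.4 and 13.2 TPM, NRGN, a calmodulin-binding protein of platelets, was at 9.96, 40.8 and 41.7 TPM, and TUBB1, the platelet tubulin, fell from 17.8 TPM to 4.67 and 4.86 TPM. Of the 25 monocyte and granulocyte markers 13 were counted, of which 6 rose and 1 fell, and CD14, CSF1R, MPO and ELANE were not listed. ITGAX, TYROBP (5.46, 18.7 and 21.2 TPM), ITGB2 (1.16, 6.53 and 5.31 TPM) and S100A9 (0.0834, 6.45 and 3.91 TPM) rose, and AZU1, the granule protein azurocidin, fell from 45.4 TPM to 20.1 and 16.3 TPM. Markers that rose thus stood beside markers without a value in both lineages. Genes of quite different lists, such as DICER1, SMAD2 and NDUFA9, were not listed either. That a marker was not listed is therefore no sign that it was not expressed.

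Of the 14 fibroblast and stroma markers 6 were counted and 5 rose. SPARC, a matrix protein, was at 1.52, 42.4 and 26.7 TPM and FN1, fibronectin, at 2.76, 14.1 and 14.5 TPM, while COL1A2, COL3A1, DCN and LUM were not listed. Of the 15 lymphoid markers 2 were counted. CD3D, a chain of the T cell receptor complex, rose from 27.5 TPM to 174 and 185 TPM, while CD3E, CD2 and LCK were not listed. Of 5 counted stem and progenitor genes MYB fell and MEIS1, a homeobox factor, rose (1.91, 6.71 and 5.20 TPM) but did not pass after TMM rescaling or with a pseudocount of 5, and GATA2 was at 140, 159.7 and 153 TPM. KIT, the receptor of stem cell factor and the only counted gene of the mast cell list, fell from 14.2 TPM to 2.74 and 4.10 TPM. The stroma and lymphoid markers that were not listed have no value either. What part other cells could have in these levels was not tested.

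**Figure D3:**
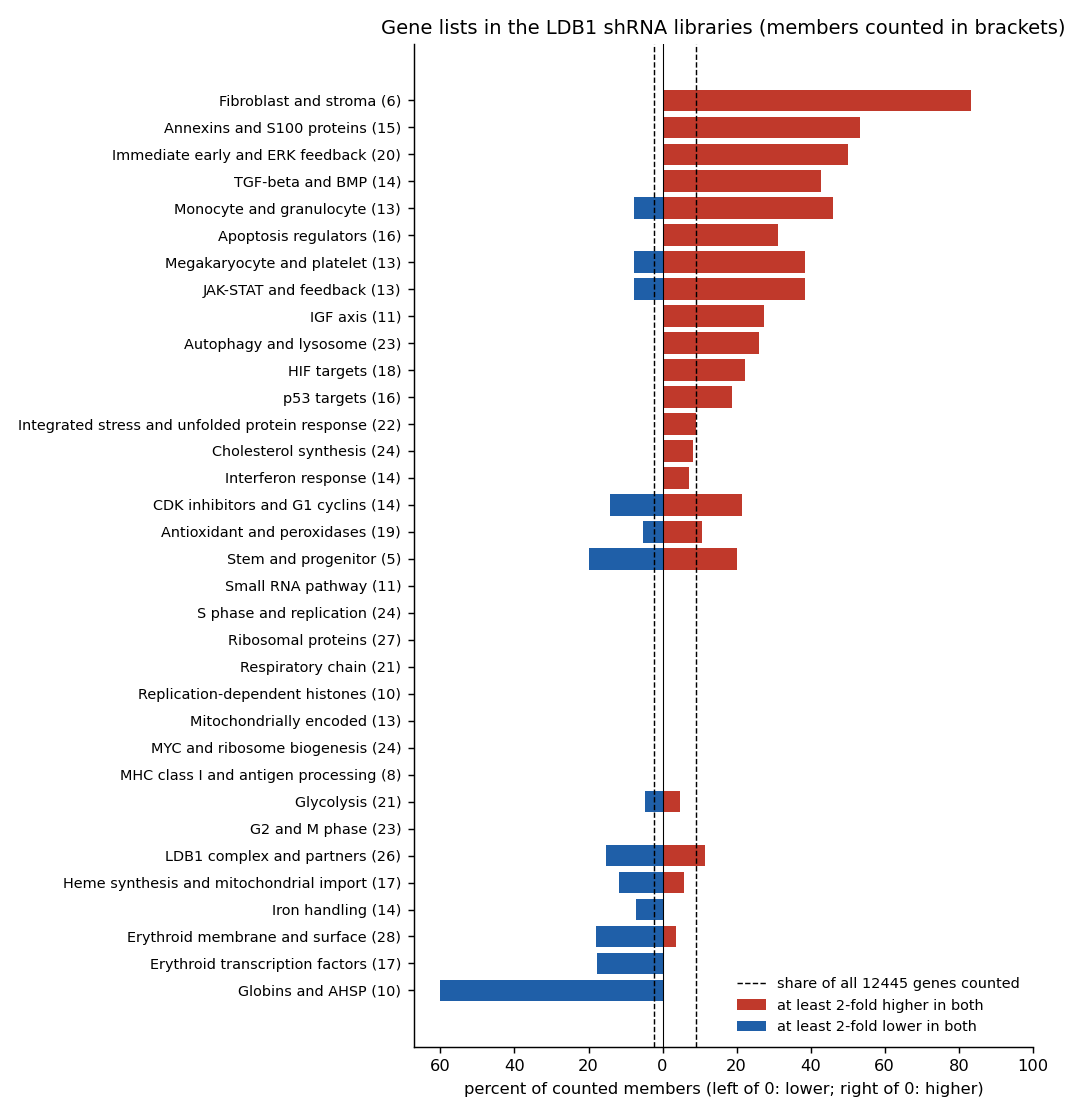
Bars give the percent of counted members of each gene list that were at least 2-fold higher (red, right) or lower (blue, left) in both LDB1 shRNA libraries, for lists with at least 5 counted members, whose number stands in brackets. Dashed lines mark the shares over all 12445 counted genes, 8.94% higher and 2.21% lower, and the list of globins and AHSP lies at the lower end with 6 of 10 members lower.

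A few genes set the 2 knockdown libraries apart. SNORD14E, a small nucleolar RNA, was at 152 TPM in the control, 2.01 TPM with shRNA 1 and 53.5 TPM with shRNA 2. TRBD1 and TRBJ1-4, short segments of the T cell receptor beta locus, were at 0, 10.7 and 0 TPM and at 0, 10.1 and 1.43 TPM, and AC108134.4 was at 2.87, 11 and 2.29 TPM. These features are short or overlap other genes, and TPM rests on few reads there. Of 115 counted small nucleolar RNAs 17 fell and 3 rose, with medians of -0.62 and -0.56. Mature small nucleolar RNAs carry no poly(A) tail, and what their levels mean in a poly(A) library was not tested. By contrast, 844 of 9586 counted protein-coding genes rose (8.80%) and 162 fell (1.69%), where 8.94% and 2.21% of all counted genes did.

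The genes that changed under LDB1 knockdown were then looked up in the LMO2 degron set. The value used there was the change from day 0 to day 4, averaged over the 2 degron lines, minus the same average over parental cells and the LMO2 control line, from limma on log2(FPKM + 1) with Benjamini-Hochberg adjustment at 0.05. Over all 15348 genes tested, 1784 were called higher (11.6%) and 1256 lower (8.18%), and over the 11398 of them counted in the knockdown the shares were 12.3% and 9.34%. Of the 1113 genes that rose with LDB1 knockdown 882 were tested, and 311 of these were higher (35.3%) and 42 lower (4.76%), with a median change of 0.47 against 0.06 for all counted genes. Of the 275 that fell 230 were tested, and 54 were lower (23.5%) and 3 higher (1.3%), with a median of -0.47. The 311 genes were 17.4% of all higher calls of the degron set and the 54 were 4.3% of its lower calls. With the biological replicate number as a block, 91 of the 230 were lower (39.6%), where 15.6% of all genes tested were lower in that fit, and 3080 genes in all were called higher and 2391 lower.

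IGFBP5 was among the genes shared with the degron set. Its biological replicates were at 0.251 and 0.471 FPKM on day 0 and 7.59 and 7.46 FPKM on day 4 in the line labelled LMO2 degron rep 1, and at 0.184 and 0.408 FPKM and then 4.65 and 4.56 FPKM in the line labelled rep 2. In parental cells and the LMO2 control line no library of these days exceeded 0.179 FPKM. The degron-specific change was 2.36 on the log2 scale (SE 0.13, limma adjusted p = 2.08e-07). Further genes that rose in both sets were VTN (2.55, SE 0.19, limma adjusted p = 1.43e-06), ITGAX (2.01, SE 0.12, limma adjusted p = 3.17e-07), ALAS1 (2.36, SE 0.38, limma adjusted p = 0.000634) and CDKN1A (1.37, SE 0.35, limma adjusted p = 0.0123).

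KLF1 was at 133 and 109 FPKM on day 0 and 22.5 and 21.1 FPKM on day 4 in the line labelled LMO2 degron rep 1, and at 95.8 and 71.3 FPKM and then 5.11 and 4.30 FPKM in rep 2. Its parental and LMO2 control libraries lay between 91.3 and 149 FPKM on these days, so that the day 4 degron libraries lay below every other one. The change was -3.02 (SE 0.20, limma adjusted p = 7.56e-07). HBZ (-3.52, SE 0.73, limma adjusted p = 0.00378), FAM178B (-3.26, SE 0.65, limma adjusted p = 0.00292) and SPTB (-1.90, SE 0.27, limma adjusted p = 0.000247) were lower in both sets as well. LDB1 RNA itself was lower in the degron set by a smaller amount, with a change of -0.89 (SE 0.17, limma adjusted p = 0.0020).

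Other genes with large changes under LDB1 knockdown did not share a call in the fit without the replicate block. AHSP had a degron-specific change of 0.21 (SE 0.85, limma adjusted p = 0.89), with replicates at 9.20 and 1.84 FPKM in parental cells on day 0, and EPB42 had 0.36 (SE 1.01, limma adjusted p = 0.84). AHSP was already between 0.162 and 1.98 FPKM in the degron lines on day 0, against 1.84 to 9.20 FPKM in parental cells and the LMO2 control line. NUPR1 had -0.08 (SE 0.31, limma adjusted p = 0.88) and ID1 had -0.03 (SE 0.46, limma adjusted p = 0.97). LMO2 RNA, at 0.29 (SE 0.34, limma adjusted p = 0.59), is no check of a degron that acts on the protein. Several genes went in opposite directions in the 2 sets: CD3D was -1.88 (SE 0.45, limma adjusted p = 0.00862), CA9 -2.12 (SE 0.50, limma adjusted p = 0.0083), EGLN3 -1.45 (SE 0.45, limma adjusted p = 0.0355) and NRGN -1.21 (SE 0.36, limma adjusted p = 0.0267). Of the S phase list 20 of 24 tested genes and of the G2 and M phase list 18 of 22 were lower in the degron set, where none had passed 2-fold with LDB1 knockdown. These counts follow unlike rules, since a degron call rests on the adjusted p and needs no 2-fold change. KIF11 (-0.65) and MKI67 (-0.88), for example, were called lower there at less than 2-fold. The sets differ in the protein targeted, in time, in unit, in method and in the rule of a call, and the difference between them was not tested.

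**Figure D4:**
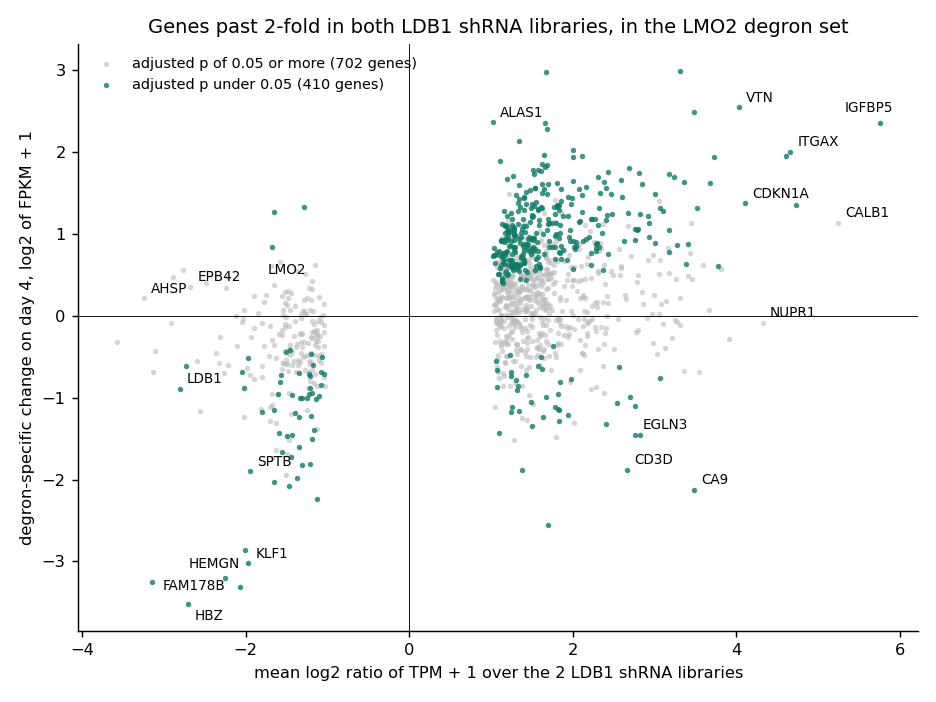
Each point is a gene that passed 2-fold in both LDB1 shRNA libraries and was tested in the LMO2 degron set, with its mean log2 ratio of TPM + 1 in the knockdown on the horizontal axis and its degron-specific day 4 change of log2(FPKM + 1) on the vertical axis. Green points have a limma adjusted p under 0.05, and they lie mostly in the upper right, with IGFBP5 at 2.36, and in the lower left, with HBZ at -3.52.

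In HEL cells TAL1 RNA was at 466 ± 26.2 CPM (SD, n = 3) with the non-targeting pool, 179 ± 12.8 CPM with siPool 1 and 188 ± 7.83 CPM with siPool 2, a change of -1.34 (edgeR quasi-likelihood adjusted p = 6.31e-07). Of 16688 genes tested 201 were called higher (1.2%) and 137 lower (0.821%), and over the 10229 of them counted in the knockdown the shares were 1.17% and 1.08%. Of the genes that rose with LDB1 knockdown 734 were tested, and 49 were higher (6.68%) and 2 lower, with a median of 0.15 against -0.02 for all counted genes. Of those that fell 154 were tested, and 22 were lower (14.3%) and none higher, with a median of -0.16. The 49 and the 22 were 24.4% and 16.1% of the HEL calls in their direction. With the replicate number as a block, 206 of 734 were higher (28.1%) and 22 lower, and 48 of 154 were lower (31.2%) and 11 higher. That fit called 1188 of all genes tested higher (7.12%) and 1249 lower (7.48%). The 49 became 25 without non-targeting replicate 2, 24 without non-targeting replicate 3, 29 without siPool 1 replicate 2 or 3, 79 without siPool 2 replicate 1 and 28 without siPool 2 replicate 2. The 22 became 13 without non-targeting replicate 1, 9 without replicate 2 or 3, and 14 without siPool 1 replicate 3 or siPool 2 replicate 3. The calls over all genes moved as well. Without non-targeting replicate 3, 3.2% of the tested genes that rose were higher, where 0.367% of all genes tested were. Without siPool 2 replicate 1 these shares were 10.6% and 1.96%. For lower calls among genes that fell they were 5.45% and 0.239% without non-targeting replicate 3.

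IGFBP5 behaved in the opposite way in HEL cells. It was at 857 ± 13.2 CPM (SD, n = 3) with the non-targeting pool, 667 ± 51.5 CPM with siPool 1 and 567 ± 28.2 CPM with siPool 2, and every TAL1 siRNA library lay below every control library. The change was -0.48 (edgeR quasi-likelihood adjusted p = 0.00197). HEL cells thus expressed IGFBP5 without any knockdown, where K562 control cells had almost none. KLF1 was at 59.4 ± 2.13 CPM (SD, n = 3) with the non-targeting pool, 42.9 ± 7.45 CPM with siPool 1 and 39.8 ± 2.13 CPM with siPool 2, a change of -0.53 (edgeR quasi-likelihood adjusted p = 0.0182).

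Genes that rose with LDB1 knockdown and were called higher in both other sets numbered 25 of the 648 tested in both (3.86%), where 43 of all 9811 counted genes tested in both were called higher in both (0.438%). For genes that fell the count was 9 of 149 (6.04%), where 39 of the 9811 were called lower in both (0.398%). Among the 9 were HEMGN, PKLR, KLF1, SPTB and GFI1B, described above, and GPD1L, SLC39A8 and SMIM10. SLC39A8, a zinc and manganese importer, was at 39.8, 12.1 and 12.8 TPM. Among the 25 were EVI2B, a leukocyte membrane protein (1.07, 30.4 and 21.4 TPM), S1PR1, a receptor for sphingosine-1-phosphate (0.376, 11.4 and 7.77 TPM), PTGDR2, a prostaglandin D2 receptor (5.32, 50.1 and 37.3 TPM), and ITGAM, the integrin chain CD11b (12, 38.7 and 36.8 TPM). SPTAN1, the alpha spectrin of cells other than red cells, was at 4.98, 31.2 and 30.6 TPM, and PLCG2, a phospholipase of blood cell signalling, at 6.13, 15.1 and 15.6 TPM. Others were SCN9A, CYTIP, AAK1, CTSA, FNBP1, PIK3CG, APOL4, FILIP1L, SOCS2, CPPED1, ITSN1, SNN, AHNAK, BCL9L, PIP5K1C, LGALS3BP, ANXA6 and ANTXR2. Genes of these groups that have not been named before were chosen after their values were seen.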

How the data were processed

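RNA was extracted with Trizol and sequenced as poly(A) libraries, per the labels' protocols, by Azenta for K562 and by Novogene for HEL. The submitters' processing notes name FastQC, STAR, featureCounts and hg19; versions, annotation, strand setting and the tool behind TPM and FPKM remain not given in the sources used here. Knockdown values are the TPM values deposited by the authors, the degron values are FPKM deposited by the authors, and the HEL values are raw counts deposited by the authors, with 15869619 to 27029836 counts per library. The depth behind TPM and FPKM is unknown.

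Knockdown ratios were log2 of TPM + 1, for genes with a highest TPM of at least 5, called at 2-fold in both libraries. FPKM values were fitted with limma 3.58.1 (log2 of FPKM + 1, genes that reached 1 FPKM in 2 or more of the 24 libraries, which all entered) and HEL counts with edgeR 4.0.16 quasi-likelihood tests (all 9 libraries, mean of both siRNA pools against the non-targeting pool), in R 4.3.3, with DESeq2 1.42.0 as an alternative. Benjamini-Hochberg adjustment ran over all genes tested, with a threshold of 0.05. Of the 12445 counted genes 12264 were matched to the FPKM table by symbol. Same-numbered replicates deviated together in 56 of 56 pairs of the degron set (r from 0.149 to 0.662) and 9 of 9 in HEL (r from 0.171 to 0.561), and so were treated as paired in the blocked fits. The main fits, and with them all p-values printed for single genes, left this pairing out. Of 718 distinct list genes in 37 lists 568 were found and 554 counted.

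The genes and lists were chosen with earlier results of these data known. Named genes are LDB1, LMO2, TAL1, IGFBP5 and AHSP, the 12 largest rises and 12 largest falls at a TPM of at least 10 ranked by the smaller log2 ratio, up to 4 members per list, and the 4 genes that differed most between the knockdown libraries; further genes were named after their values were seen, and some genes that the rule names are not reported here. Promoter sequences are from RefSeq, GRCh38.p14. Plots and tables were made with pandas 2.3.3, numpy 2.4.6 and matplotlib 3.10.9.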

Additional observations from a re-analysis of the deposited data

How the results depend on the processing

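The knockdown counts moved with the pseudocount, the filter and the threshold. Of the 98 rule-named genes that had passed 2-fold, 93 still passed after TMM rescaling and 82 with a pseudocount of 5, which ended the calls of S100A9, ITGB2, IGF1, IRS1, IFIT3 and CASP8 among others. That pseudocount left 2 of 6 stroma genes, 1 of 11 IGF genes and 4 of 13 monocyte genes higher. Against 1113 higher and 275 lower genes in both libraries, a pseudocount of 5 gave 588 and 149, a highest TPM of at least 20 gave 578 and 159, a threshold of 1.5-fold gave 2453 and 973, and one of 3-fold gave 429 and 64, since fewer or more genes can then pass. Centring each ratio on its median gave 424 lower genes. Leaving out a knockdown library gave the counts of a single shRNA again, 1244 to 1624 higher and 393 to 493 lower genes. These cannot be smaller than the counts over both, and so are no check of them. With a pseudocount of 5, shRNA 1 alone gave 935 higher and 260 lower genes and shRNA 2 alone 660 and 180, and TMM rescaling gave 756 lower with shRNA 1. Between the 2 knockdown libraries a pseudocount of 5 gave 21 higher and 13 lower genes, no filter on low values gave 152 and 204, and a pseudocount of 0.1 gave 133 lower. Of the 1388 called genes 1168 (84.1%) kept their call with TMM rescaling and 737 (53.1%) with a pseudocount of 5.

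In the degron set the replicate block gave 91 lower genes among those that fell and 433 higher among those that rose, and leaving out 1 library gave 280 to 331 higher and 41 to 69 lower. With 1 library left out, 8.79% to 12.9% of all genes tested were called higher and 6.37% to 8.7% lower. In HEL the replicate block gave 206 higher and 48 lower, no filter on low counts gave 96 higher, DESeq2 gave 110 higher, and leaving out 1 library gave 24 to 79 higher and 9 to 25 lower. The 96 were 10% of those tested, where 1.37% of all genes tested were called higher without the filter. The 110 were 17.2%, where DESeq2 called 3.56% of all genes tested higher. The cause of these moves was not tested. The blocked totals over all genes tested stand in the report. With 1 library per group and no depth, no error can be put on a knockdown ratio.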

Other observations

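The share of genes that rose with LDB1 knockdown was highest among weakly expressed genes. Of 1929 counted genes with a highest TPM from 5 to 10, 15.1% rose and 3.21% fell, while among genes at 100 TPM or more 6.70% rose and 2.15% fell. Of 1463 counted long non-coding RNA genes 137 rose and 55 fell, and of 758 counted pseudogenes 72 rose and 17 fell. Of 523 counted small RNA genes 47 rose (8.99%) and 37 fell (7.07%). In these classes a TPM rests on short or weakly covered features, and how far that enters the shares was not tested.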
